A study of Mus musculus with 4 samples.

Results

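Wnt proteins are secreted, lipid-bearing signals, and 9 mouse genes around them are described here: the ligand genes Wnt5a, Wnt10a and Wnt4, the secreted modulator genes Dkk2, Dkk3, Sfrp1, Sfrp2 and Wif1, and Axin2. They were taken by gene symbol and are 9 of the 12393 genes that the array's annotation names, measured by 15 probe sets. The choice was made with earlier results of these data in view, and was selected on the differences between polysome and total RNA at these probe sets among others, so those differences are given as a description without any test. Axin2 is not secreted: it is a cytoplasmic scaffold protein whose gene is a standard transcriptional target of Wnt signalling.

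The data come from cultured fibroblasts of mouse embryos (mesenchymal cells that lay down connective tissue), of the strain labelled C57/BJ6. The 4 arrays, 1 per group, are polysome RNA labelled Npm1+/- (called Het), total RNA labelled Het, polysome RNA labelled Npm1+/+ (called WT) and total RNA labelled WT. Npm1 encodes nucleophosmin, a nucleolar protein of ribosome assembly. Polysome RNA is the ribosome-bound RNA from a sucrose gradient, and by its stated design the study asked how deletion of Npm1 shifts translation. No source used here gives the number of embryos, the passage of the cells or whether the RNAs of a genotype came from the same culture.

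A Wnt ligand binds a Frizzled receptor at the cell surface, alone or with the co-receptors Lrp5 and Lrp6. With the co-receptors, binding stabilises beta-catenin, which enters the nucleus and switches on target genes, while other ligands act through Ror receptors without beta-catenin. Secreted Frizzled-related proteins and Wif1 bind the ligands outside the cell, and Dickkopf proteins such as Dkk2 bind the co-receptors. Fibroblasts of the embryonic mesenchyme both send and receive these signals.

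Every value below is an RMA value on the log2 scale, a background-corrected, between-array normalised summary of the probes of a probe set, and every difference is 1 array minus another. A group holds a single array, so replicate error is unknown, and p-values are not given. Genes are counted at 2-fold or more, a log2 difference of at least 1, and the brightest probe set by mean value stands for its gene. As a guide to the spread between probe sets, the differences at the brightest and next brightest probe sets of 4956 genes were compared. They differed with an SD of 0.32 for polysome minus total under the Het label and 0.36 under the WT label. Both probe sets were read on the same arrays, so this SD holds no error between arrays or cultures. The corresponding SD for Het minus WT was 0.29 in polysome RNA and 0.33 in total RNA. The median of all values was 7.53, and a fold is uncertain where a gene reads below it. For the 2701 genes whose second probe set reached it in at least 1 library, the polysome minus total SD was smaller. It was 0.24 under the Het label and 0.28 under the WT label.

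Npm1 did not follow the genotype labels, so directions between them are stated by label only. Its brighter probe set read 12.84 in the Het and 12.93 in the WT polysome library, and 11.96 in the Het and 11.91 in the WT total library, and whether it lies inside the deleted part is not known here. All 11 fibroblast markers on the array, among them Col1a1 at 13.95 to 14.34 and Thy1 at 12.29 to 12.97, reached the median of all values. Of markers of other cell types, 1 of 6 epithelial genes (Krt19), 1 of 6 endothelial genes (Kdr) and 9 of 14 macrophage genes reached it in at least 1 library. So did 2 of 6 muscle genes, 3 of 6 neural genes and 1 of 5 cartilage or bone genes. Among these were Cnn1 at 12.23 to 12.88, Nes at 9.05 to 10.01 and Col2a1 at 9.36 to 10.96. Medians of the arrays lay between 7.47 and 7.59.

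Under each genotype label, 1 of the 9 genes was past 2-fold with more in polysome RNA, and 2 were past it with less. The higher gene was Dkk2, and the lower genes were Wnt10a and Sfrp2. Of all genes, 0.412% were that much higher and 0.355% that much lower under the Het label, and 0.476% and 0.379% under the WT label. Since these differences were in view when the genes were chosen, nothing is read from that contrast. Centring each array on its median moved the median gene to -0.05 under the Het label and -0.03 under the WT label, against 0.05 and 0.09 without it. The counts over all genes were 51 higher and 44 lower under the Het label, and 37 and 66 after centring. Under the WT label they were 59 and 47, and 39 and 81 after centring. The 3 members stayed past 2-fold in the same direction under centring, quantile normalisation and subtraction of a loess trend.

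**Figure D1:**
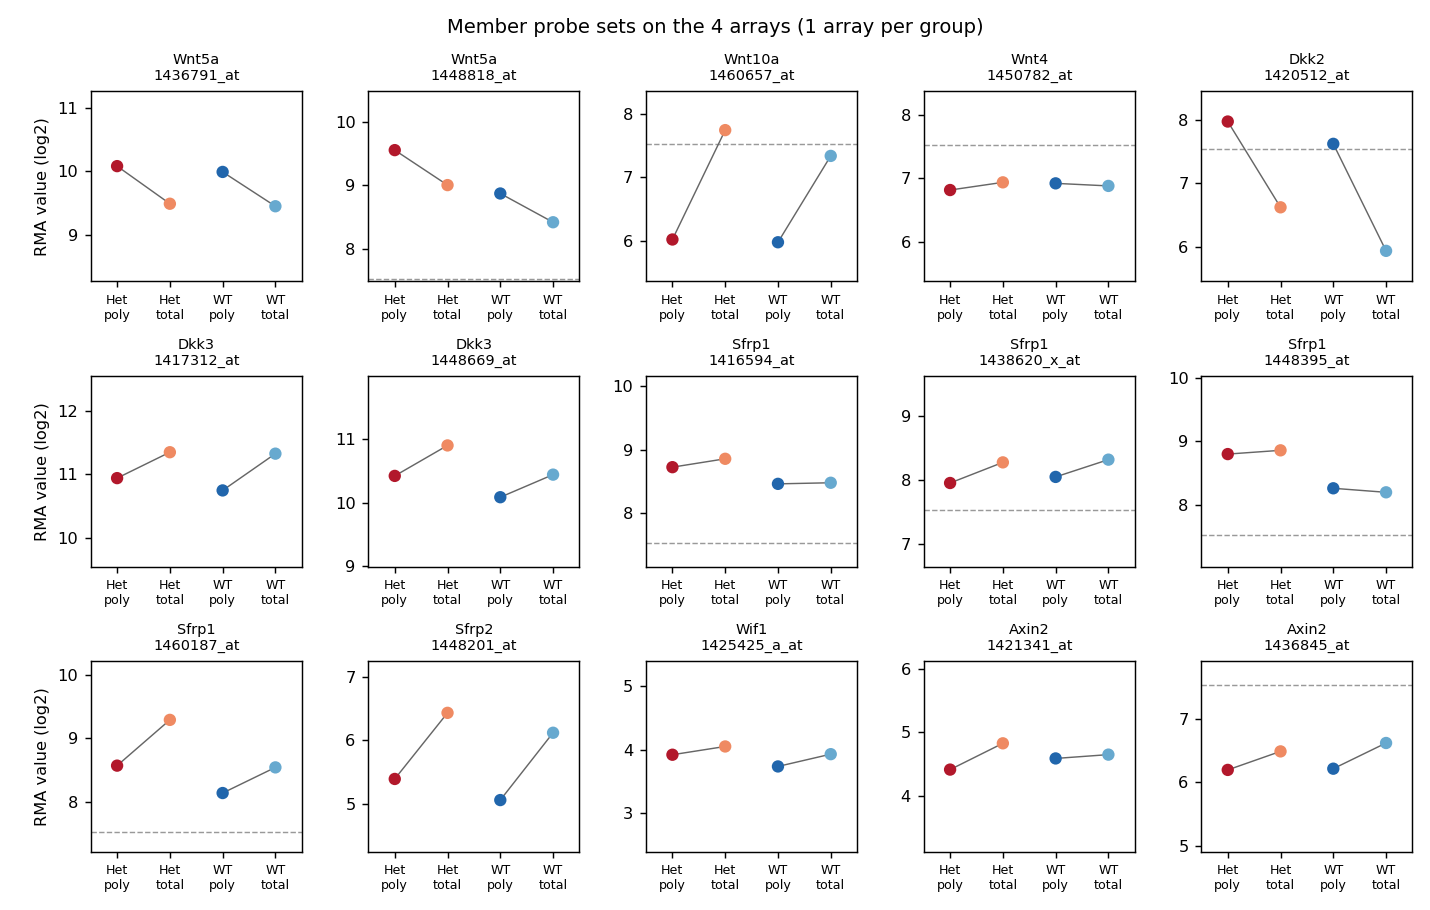
RMA value (log2) of each of the 15 probe sets of the 9 genes on the 4 arrays, 1 point per array, with lines joining the polysome and total library of a genotype label. Every panel spans 3 log2 units, so slopes compare between panels, and the dashed line is the median of all values, 7.53, where it falls in the panel; Dkk2 slopes down from polysome to total, and Wnt10a and Sfrp2 slope up.

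Dkk2 and Sfrp2 have promoter sequence in the RefSeq table for GRCm38.p6, and their upstream bases are shown because these genes stood past 2-fold in opposite directions. Each line gives the 250 bases before the annotated transcription start, 5′ to 3′, at chr3:132085042-132085291 on the + strand for Dkk2 and at chr3:83766071-83766320 on the + strand for Sfrp2. Capitals mark matches on either strand to the TCF/LEF letters CTTTGA or CTTTGT, the core that beta-catenin's DNA-binding partners recognise, or to the TATA letters TATAAA.
Dkk2: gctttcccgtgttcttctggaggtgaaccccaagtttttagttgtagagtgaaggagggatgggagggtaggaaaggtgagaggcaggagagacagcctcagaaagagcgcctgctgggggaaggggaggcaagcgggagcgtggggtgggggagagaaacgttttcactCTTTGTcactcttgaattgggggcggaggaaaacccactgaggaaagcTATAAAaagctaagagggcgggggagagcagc
Sfrp2: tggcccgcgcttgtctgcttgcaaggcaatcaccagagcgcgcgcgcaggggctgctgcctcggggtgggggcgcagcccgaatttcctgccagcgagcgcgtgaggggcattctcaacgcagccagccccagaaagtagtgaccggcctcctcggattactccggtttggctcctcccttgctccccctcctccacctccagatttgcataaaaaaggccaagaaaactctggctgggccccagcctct
The Dkk2 window held CTTTGT from 80 to 75 bases and TATAAA from 32 to 27 bases before the start, and the Sfrp2 window held no match to either. Over 32841 mouse promoter windows of the same length, 27.6% held a TCF/LEF match and 12.4% a TATA match, so either is common. Of the 5 members with a window (Dkk2, Sfrp2, Wnt4, Wif1 and Axin2), Dkk2 alone matched the TCF/LEF letters, and Wif1 matched the TATA letters on the opposite strand, 232 to 227 bases before its start. G and C made up 55.6% of the Dkk2 window, 63.6% of that of Sfrp2 and 85.2% of that of Wnt4, against a median of 52.4% over all windows. The arrays measured RNA, not promoter activity, and these matches are a description of the letters only.

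Among the ligands, Wnt5a and Wnt10a differed in opposite directions between polysome and total RNA. Wnt5a, which acts mainly without beta-catenin and guides cell polarity and migration, read 10.08 in the polysome and 9.49 in the total library under the Het label, and 9.99 in the polysome and 9.45 in the total library under the WT label. Both polysome libraries were above both total libraries. The polysome minus total difference was 0.59 (1.51-fold) under the Het label and 0.54 (1.45-fold) under the WT label. Its other probe set gave 0.55 and 0.45, so that both probe sets and both genotype labels showed a higher polysome value, of less than 2-fold. All 4 libraries were above the median of all values at both probe sets.

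Wnt10a, a ligand that signals through beta-catenin and is required for teeth and skin appendages, read 6.02 in the polysome and 7.74 in the total library under the Het label. Under the WT label it read 5.98 in the polysome and 7.34 in the total library. Both polysome libraries were below both total libraries, and only the Het total library reached the median of all values, so the size of the fold is uncertain. The difference was -1.72 (3.30-fold lower in the polysome library) under the Het label and -1.36 (2.57-fold lower) under the WT label. Among all 12393 genes it stood at position 8 from the lowest under the Het label and 16 under the WT label. It has 1 probe set, so no second probe set bears on it.

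Wnt4, needed for kidney and female reproductive tract development, read 6.81 in the polysome and 6.94 in the total library under the Het label, and 6.92 in the polysome and 6.88 in the total library under the WT label. Its 4 values differed by less than the SD between probe sets and lay below the median of all values. The polysome minus total difference was -0.12 under the Het label and 0.04 under the WT label, and the second of these turned sign under all 3 scalings.

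Of the Dickkopf genes, Dkk2 was higher and Dkk3 lower in polysome RNA. Dkk2, whose protein binds Lrp5 and Lrp6 and in most settings blocks signalling through them, read 7.97 in the polysome and 6.62 in the total library under the Het label, and 7.62 in the polysome and 5.93 in the total library under the WT label. Both polysome libraries were above the median of all values and both total libraries below it, which leaves the size of the fold uncertain. The difference was 1.35 (2.55-fold higher) under the Het label and 1.68 (3.21-fold higher) under the WT label. These were positions 13 and 6 from the highest of 12393 genes. Dkk2 also rests on 1 probe set.

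Some markers of another cell type were, like Dkk2, higher in polysome RNA. Under each genotype label, 6 of 14 macrophage markers on the array were past 2-fold on the polysome side. Of all genes, 0.412% were under the Het label and 0.476% under the WT label. The marker lists, like the 9 genes, were chosen with earlier results of these data known, so nothing is read from that contrast. The list's summed signal on the linear scale was 4178 in the Het polysome against 1663 in the Het total library. Under the WT label it was 3196 in the polysome against 1373 in the total library. Of the 14, 9 reached the median of all values in at least 1 library, among them Lyz2 (7.59 to 10.46) and C1qb (5.98 to 9.03). The other 5, among them Adgre1 (5.64 to 6.17), Tyrobp (6.13 to 6.85) and Ptprc (4.53 to 4.87), read below it throughout. Adgre1 was higher in polysome RNA by 0.44 under the Het label and 0.53 under the WT label. Ptprc was lower, at -0.32 and -0.21. Among those that reached the median, Csf1r (7.62 to 7.84) was at -0.22 under the Het label and 0.05 under the WT label. Laptm5 (7.62 to 7.77) was at 0.04 and 0.14, so the list did not shift as a whole. Of the 14 markers, 11 were above 0 under the Het label and 13 under the WT label. Of all genes, 58.6% and 62.6% were above 0. The fibroblast proteoglycan gene Dcn was also higher in polysome RNA, by 1.16 under the Het label and 1.37 under the WT label, the only 1 of 11 fibroblast markers past 2-fold. The part of the macrophage markers in the Dkk2 difference was not tested. In bulk RNA, RNA from more or fewer cells of a type and more or less RNA per cell cannot be told apart.

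Dkk3, a divergent Dickkopf protein that does not act on the co-receptors as its relatives do, read 10.94 in the polysome and 11.35 in the total library under the Het label, and 10.75 in the polysome and 11.33 in the total library under the WT label. Both polysome libraries were below both total libraries. The difference was -0.41 under the Het label and -0.58 under the WT label, and the other probe set gave -0.48 and -0.36. The 4 differences had 1 sign, none reached 2-fold, and the smallest equalled the SD between probe sets, 0.36.

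Of the secreted Frizzled-related genes, Sfrp2 and the brightest probe set of Sfrp1 were lower in polysome RNA, but the family did not share a direction. Sfrp5 was higher, by 0.26 under the Het label and 0.30 under the WT label. Frzb, also of this family, was higher by 0.20 and 0.38. Sfrp4 was lower, at -0.31 and -0.25. Sfrp2, which binds Wnt ligands and is abundant in mesenchyme, read 5.39 in the polysome and 6.43 in the total library under the Het label, and 5.06 in the polysome and 6.12 in the total library under the WT label. Both polysome libraries were below both total libraries, and all 4 values were below the median of all values, so the fold is uncertain. The difference was -1.04 (2.06-fold lower) under the Het label and -1.06 (2.08-fold lower) under the WT label, close to the 2-fold limit. It stood at positions 41 and 37 from the lowest of 12393 genes.

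Most epithelial and cartilage markers also read lower in polysome RNA, beside Wnt10a and Sfrp2, and bone markers did not. Of 6 epithelial markers, 5 were below 0 under the Het label, Cldn4 (-1.14) past 2-fold, and 6 under the WT label, where none was past 2-fold; of all genes, 58.6% were above 0 under the Het label and 62.6% under the WT label. Their summed linear signal was 474 in the Het polysome against 643 in the Het total library, and 521 in the WT polysome against 655 in the WT total library. The epithelial genes Epcam and Cdh1 read below the median of all values in all 4 libraries, and 1 of the 6, Krt19, reached it. Of the 5 cartilage and bone markers, none was past 2-fold. The cartilage genes Col2a1 (-0.63 under the Het label and -0.83 under the WT label), Matn1 (-0.44 and -0.44) and Acan (-0.23 and -0.14) were below 0, and the bone genes were at 0.16 and 0.29 (Ibsp) and -0.02 and 0.11 (Sp7). The summed signal of the 5 was 869 in the Het polysome against 1245 in the Het total library, and 1365 in the WT polysome against 2241 in the WT total library, most of it from Col2a1, the only 1 of the 5 to reach the median of all values. Of 6 neural markers, 5 were below 0 under the Het label and 3 under the WT label. Among them Map2 (-1.26 and -1.38) was past 2-fold under both labels, with readings of 4.98 to 6.36. Of 6 endothelial markers, 4 were below 0 under each label. Of 6 muscle markers, 4 were below 0 under the Het label and 3 under the WT label. The part of these markers in the differences of Wnt10a and Sfrp2 was not tested.

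Sfrp1, its close relative, had 4 probe sets that did not give the same size. The brightest read 8.57 in the polysome and 9.29 in the total library under the Het label, and 8.14 in the polysome and 8.54 in the total library under the WT label. That is a difference of -0.72 under the Het label and -0.40 under the WT label. The other 3 gave -0.32 to -0.06 under the Het label and -0.27 to 0.06 under the WT label, and averaging the 4 gave -0.31 under the Het label. The lower polysome value of Sfrp1 therefore depends on the probe set.

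Wif1, a secreted inhibitor that binds Wnt ligands through its own domain, read 3.92 in the polysome and 4.05 in the total library under the Het label, and 3.74 in the polysome and 3.93 in the total library under the WT label. These values lie near the bottom of the arrays' range, which started at 3.41 to 3.71. Its differences of -0.13 and -0.19 turned sign after quantile normalisation and after subtraction of the loess trend.

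Axin2 read 6.19 in the polysome and 6.48 in the total library under the Het label, and 6.21 in the polysome and 6.62 in the total library under the WT label. Polysome values were the lower ones, by -0.29 under the Het label and -0.40 under the WT label. The dimmer probe set gave -0.41 and -0.06, and all 8 values at both probe sets were below the median of all values. Over the 9 genes the median polysome minus total difference was -0.29 under the Het label and -0.40 under the WT label, against 0.05 and 0.09 over all genes. With the mean of all probe sets the median under the WT label was -0.19.

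**Figure D2:**
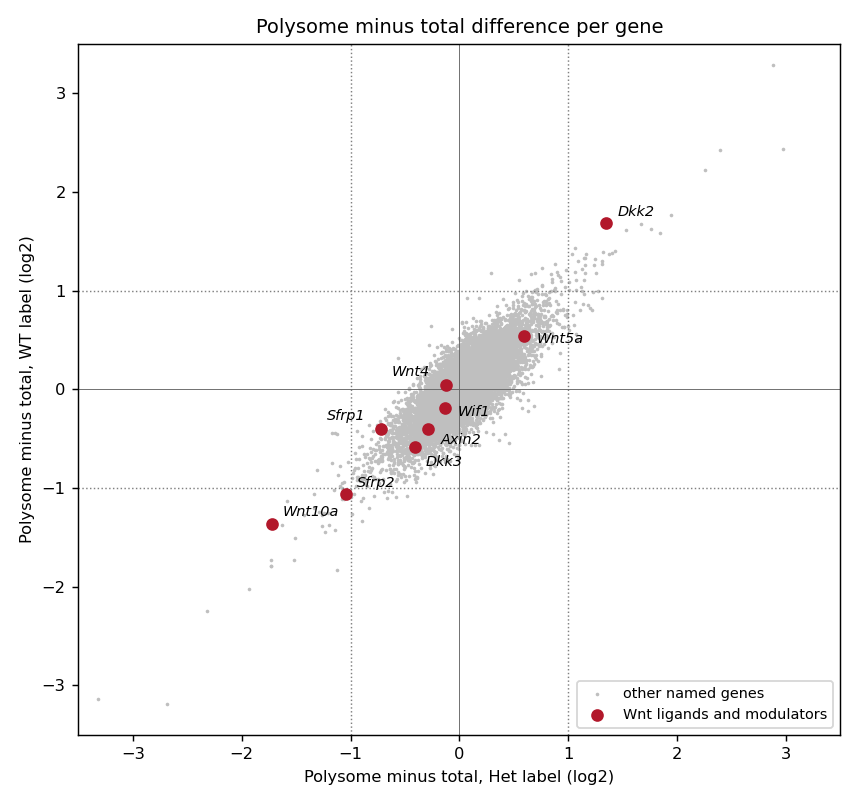
Polysome minus total difference (log2) of each named gene under the Het label (x axis) and the WT label (y axis), with dotted lines at 2-fold. Dkk2 (1.35 and 1.68) lies in the upper right corner, Wnt10a (-1.72 and -1.36) and Sfrp2 (-1.04 and -1.06) in the lower left, and the other 6 genes inside the 2-fold lines.

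The genes whose profiles over the 4 arrays lay nearest to those of Dkk2 and Wnt10a were found by the distance between values centred on each gene's mean. For Dkk2 they were Tfpi2, a protease inhibitor gene (distance 0.29), the macrophage complement gene C1qc (0.29) and Ctla2b (0.30). Tfpi2 was higher in polysome RNA by 1.16 under the Het label and 1.34 under the WT label, and C1qc by 1.37 under both. For Wnt10a they were Efhd1 (0.25), the carbonic anhydrase gene Car3 (0.26) and the matrix proteoglycan gene Prelp (0.28). Prelp was lower in polysome RNA, at -1.73 under each label. With 4 arrays, such likeness is a description only.

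Between the genotype labels, none of the 9 genes reached 2-fold in polysome or in total RNA. Over all genes, 0.767% did in polysome RNA and 1.04% in total RNA, in either direction. In total RNA 8 of the 9 were above 0 in Het minus WT, with a median of 0.12 against 0.02 over all genes, of which 51.7% were above 0. The 8 became 6 under quantile normalisation and the loess trend, where Wnt5a and Dkk3 turned sign, and 9 with the mean of all probe sets. The median became 0.31 with that mean and 0.41 over the 5 members that reached the median of all values. In polysome RNA 7 of the 9 were above 0, with a median of 0.18 against 0.02 over all genes, of which 52.9% were above 0, and the median was 0.07 after subtraction of the loess trend.

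The members with the largest genotype-label differences in total RNA were Sfrp1 and Dkk2, past 1.5-fold, as were 4.63% of all genes in that direction. The brightest Sfrp1 probe set read 9.29 in the Het and 8.54 in the WT total library, a difference of 0.75 (1.68-fold higher). For polysome RNA it read 8.57 in the Het and 8.14 in the WT library, a difference of 0.43. Of the other 3 probe sets, those at 0.38 and 0.66 in total RNA gave 0.26 and 0.54 in polysome RNA. The third, of the _x_at kind that can cross-hybridise, gave -0.04 and -0.10.

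Dkk2 read 6.62 in the Het and 5.93 in the WT total library, and 7.97 in the Het and 7.62 in the WT polysome library. The Het library was the higher in each RNA, by 0.69 (1.61-fold) in total and 0.35 in polysome RNA. Sfrp2 was higher by 0.31 in total and 0.33 in polysome RNA, and Wnt10a by 0.41 in total and 0.04 in polysome RNA. These values of Dkk2, Sfrp2 and Wnt10a come mostly from readings below the median of all values.

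For Wnt5a the probe sets disagreed. The brighter differed between the genotype labels by 0.04 in total and 0.09 in polysome RNA. The other read 9.0 in the Het and 8.42 in the WT total library and 9.55 in the Het and 8.87 in the WT polysome library, differences of 0.58 and 0.68. The Dkk3 probe sets also differed in total RNA, at 0.02 and 0.46. Wnt4 was at 0.06 in total and -0.10 in polysome RNA, Wif1 at 0.12 and 0.18 and Axin2 at -0.13 and -0.02, each within the SD between probe sets.

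**Figure D3:**
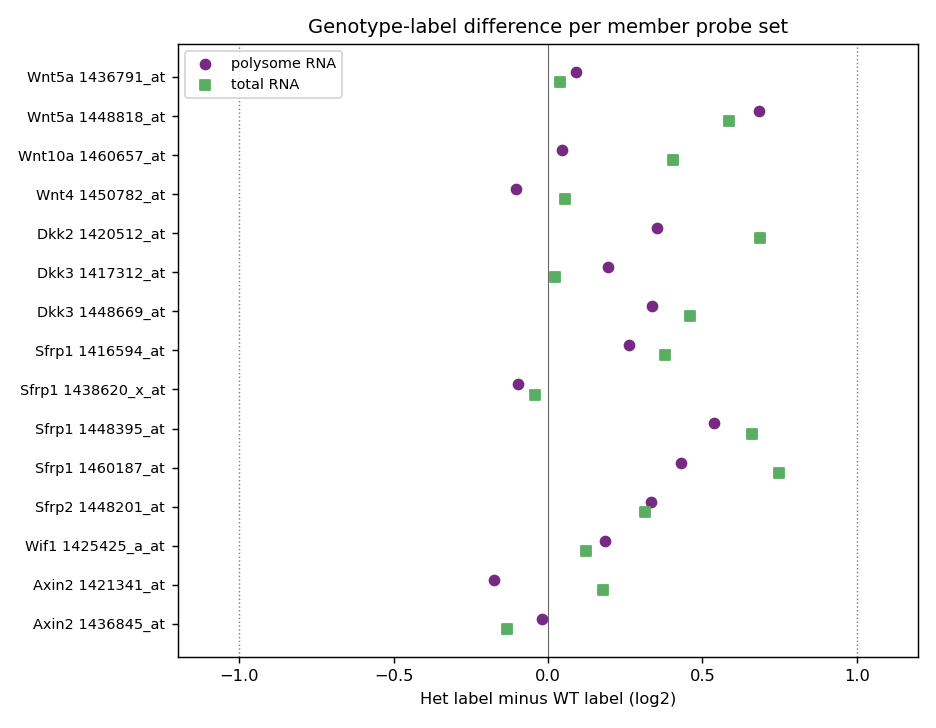
Het minus WT difference (log2) of each of the 15 probe sets in polysome RNA (circles) and total RNA (squares), with dotted lines at 2-fold. No probe set reaches 2-fold, 3 of the 4 Sfrp1 probe sets lie to the right of 0, and the brighter and dimmer Wnt5a probe sets stand apart.

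The polysome minus total difference itself was compared between the genotype labels as Het minus WT, called the association difference, in which 0% of genes reached 2-fold. Among the 9 genes it ran between -0.36 for Wnt10a and 0.17 for Dkk3, with a median of 0.02 against -0.03 over all genes, and that median turned sign with the mean of all probe sets (-0.12), quantile normalisation (-0.06) and the loess trend (-0.03). For Dkk2 it was -0.33 and for Sfrp1 -0.32, against an SD between probe sets of 0.26. The 3 other Sfrp1 probe sets gave -0.12 to -0.05.

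Of 93 other listed Wnt pathway symbols 82 were on the array, and at their brightest probe sets 0 were past 2-fold in any of the 5 comparisons. Few of all genes were. In polysome minus total, 0.412% were higher and 0.355% lower under the Het label, and 0.476% and 0.379% under the WT label. In Het minus WT, 0.767% were past 2-fold in polysome and 1.04% in total RNA, and 0% in the association difference. The count of 0 therefore does not set the 82 genes apart. The median polysome minus total difference over these 82 genes was 0.06 under the Het label and 0.04 under the WT label, against 0.05 and 0.09 over all genes. The 16 other Wnt ligand genes ran between -0.20 and 0.49 under the Het label and between -0.28 and 0.42 under the WT label. The highest of them were Wnt8a (0.49 and 0.42), Wnt8b (0.40 and 0.37) and Wnt3a (0.43 and 0.29), and the highest reading among the 3 was 6.29.

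Of 13 other secreted modulators, Rspo1, whose protein amplifies Wnt signalling, was at -0.51 under the Het label and -0.70 under the WT label. Dkk4, another Dickkopf gene, was at -0.46 and -0.44, and Sost, an inhibitor made by bone cells, at 0.39 and 0.34, with a second Sost probe set at -0.39 and -0.33. These 3 genes read below 6 in every library.

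Among 17 receptors and co-receptors 12 were above 0 under each label, where 58.6% of all genes were under the Het label and 62.6% under the WT label. Ror2, a receptor for Wnt5a, read 8.03 in the polysome and 7.57 in the total library under the Het label, and 8.36 in the polysome and 7.64 in the total library under the WT label. Both polysome values were above both total values, by 0.46 under the Het label and 0.72 under the WT label, and the value of Wnt5a itself was 0.59 and 0.54. The other Ror receptor gene, Ror1, went the other way, at -0.18 and -0.38, with readings of 5.83 to 6.36. Ryk, also in this list, was at -0.02 and 0.10. Lgr5 (-0.80 and -0.42) and Lgr6 (-0.35 and -0.47), receptors for R-spondins, were lower in polysome RNA.

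Among 24 genes of Wnt secretion, the cytoplasm and the nucleus, Dvl2, which relays the signal from Frizzled, was at 0.61 under the Het label and 0.68 under the WT label. Porcn, the enzyme that attaches the lipid to Wnt proteins, was at 0.30 and 0.52, and Apc2 at -0.19 and -0.52. Of 16 target genes, Ccn5 (-0.74 and -0.60), a secreted matrix-associated protein gene, Lgr5 and the AP-1 gene Fosl1 (-0.54 and -0.45) differed most. The median of the targets was -0.09 under the Het label and -0.12 under the WT label, with 0 targets past 2-fold.

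**Figure D4:**
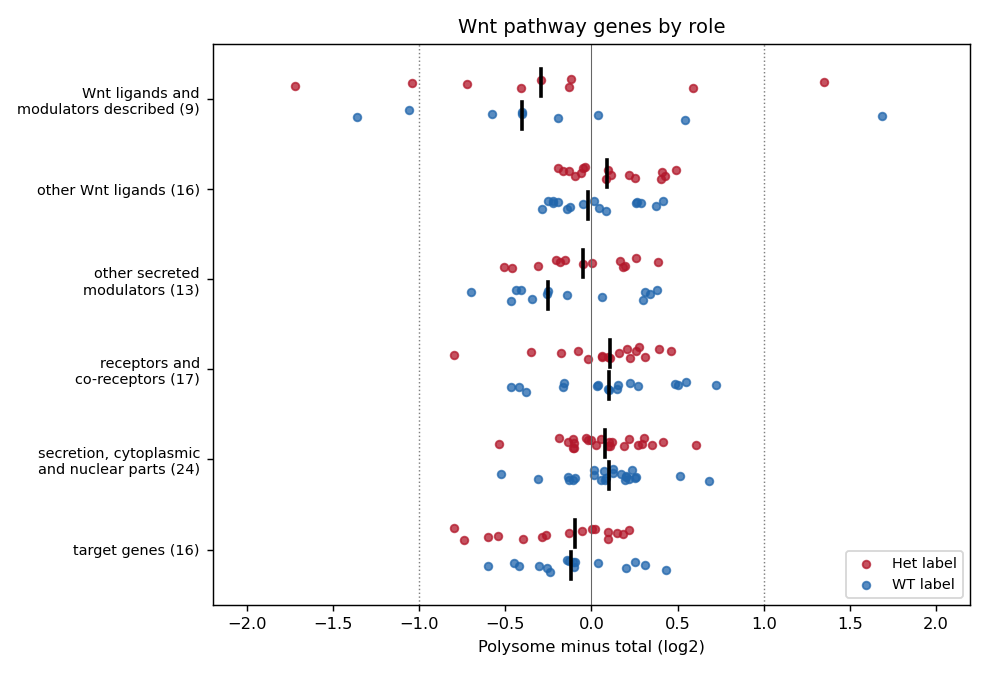
Polysome minus total difference (log2) under the Het label (red) and the WT label (blue) for the 9 genes described and for the other Wnt pathway genes by role, 1 point per gene at its brightest probe set, numbers of genes in brackets, with black bars at medians and dotted lines at 2-fold. Only Dkk2, Wnt10a and Sfrp2 lie outside the 2-fold lines.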

How the data were processed

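RNA of mouse embryonic fibroblasts was measured on 4 Affymetrix expression arrays, 1 per group. The deposited log2 values, 1 per probe set and array, were made with R 3.4.3, affy 1.56.0 and RMA, per the submitters' processing notes. Settings and genome build are not given in the sources used here. Of 22690 probe sets, 20380 have 1 gene symbol in the platform's annotation, 691 have several and 1619 are unlisted or controls. Only the first kind was named, and 20351 of them had an Entrez number in RefSeq. Differences of log2 values, ranks and counts at 2-fold were computed over 12393 genes with no floor on level (Python 3.11.15, pandas 2.3.3), and the calculation was tested on simulated arrays. The genes always named were the 9 members and Npm1, with the 3 members of each of 5 pathway lists that had the largest mean polysome minus total difference, any past 2-fold, and the 3 nearest profiles. Promoter windows are RefSeq's (GRCm38.p6). The members and lists were chosen with earlier results of these data known. As alternatives, all probe sets of a gene were averaged, or _x_at and _s_at probe sets left out, and the other settings were centring, quantile normalisation, a loess trend (span 0.3, statsmodels 0.14.6), 1.5-fold and 3-fold limits, and a floor at 7.53. No detection calls were used. Precision is limited by the number of arrays.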

Additional observations from a re-analysis of the deposited data

Results flagged for a closer look

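A difference of opposite sign in the groups compared marked 6 results, and in none was the difference between the groups tested. The polysome minus total difference of Wnt4 was -0.12 under the Het label and 0.04 under the WT label. In Het minus WT, Wnt4 was at -0.10 in polysome and 0.06 in total RNA, Wnt3a at 0.058 and -0.08, Rspo1 at 0.024 and -0.17, Lgr6 at 0.10 and -0.02, and Npm1 at -0.090 and 0.05. All of these values are smaller than the SD between probe sets.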

How the results depend on the processing

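With 1 array per group, no replicate could be left out. An additive fit of RNA and genotype label over the 4 arrays, which takes their interaction as error, was not run. No paired analysis was possible because the labels give the groups no shared replicate numbers. The differences of Dkk2, Wnt10a and Sfrp2 between polysome and total RNA kept their sign and stayed past 2-fold in all 30 recomputed values. Each of these genes has 1 probe set, not of the _x_at or _s_at kind. Averaging probe sets or leaving out those kinds therefore could not change its values, and only the other settings bear on it. Over all members, 2 of 225 recomputed differences moved by more than the SD between probe sets, both with the mean of all probe sets: Sfrp1 in polysome minus total under the Het label (-0.31) and Wnt5a in Het minus WT in polysome RNA (0.39). Many of the 225 could not move. Leaving out _x_at and _s_at probe sets changed no member's value, and the mean of all probe sets could change only the 4 members with several. With that mean, the median of the members was -0.19 in polysome minus total under the WT label and 0.31 in Het minus WT in total RNA. At 3-fold 1 member passed in polysome minus total under the Het label (Wnt10a) and 1 under the WT label (Dkk2), and at 1.5-fold 5 passed under the Het label. Of all 12393 genes, 17 and 19 passed at 3-fold, and 634 at 1.5-fold under the Het label. The polysome minus total differences were in view when the members were chosen, so nothing is read from these counts. In Het minus WT in total RNA 2 members passed at 1.5-fold, as did 1065 of all genes. The median association difference was -0.32 over the 5 members that reached the floor, and the floor's removal of 4 members makes that change. Over all genes, centring gave 39 higher and 81 lower in polysome minus total under the WT label, against 59 and 47, and the floor gave 38 and 28 there and 29 and 26 under the Het label, against 51 and 44. Quantile normalisation gave 49 higher and 64 lower under the WT label and 43 and 56 under the Het label. The loess trend gave 4 higher and 141 lower in Het minus WT in polysome RNA, against 7 and 88, and 8 and 212 in total RNA, against 20 and 109. The mean of all probe sets gave 3 higher in polysome RNA and 12 in total RNA, and quantile normalisation 13 in total RNA. For the association difference 1 gene passed 2-fold after centring and 2 after quantile normalisation, against 0. The cause was not tested.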

Other observations

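Beta-catenin (Ctnnb1), the central protein of the pathway, was singled out after its values were seen, because its 3 probe sets gave different sizes between the genotype labels. In polysome RNA the brightest read 12.39 in the Het and 12.75 in the WT library, a difference of -0.37, and the others gave -0.90 and -1.37. In total RNA the 3 gave -0.50, -0.86 and -1.23. All 3 were lower in the Het libraries, and 1 of them was past 2-fold.

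Among pathway genes with large genotype-label differences in both RNAs, chosen after their values were seen, were Wls, which carries Wnt proteins to the cell surface, the co-receptor gene Lrp6, the kinase gene Gsk3b and the beta-catenin cofactor gene Bcl9. Wls was at -0.72 in polysome and -0.79 in total RNA, Lrp6 at 0.78 and 0.56, Gsk3b at 0.72 and 0.92, and Bcl9 at 0.77 and 0.62. None was past 2-fold.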
